A study of Mus musculus with 12 samples.

Results

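The genes described here are 10 members of the interleukin-17 (IL-17) pathway, the receptors Il17ra, Il17rb, Il17rc and Il17rd, the ligand Il17d, the adaptors and kinases Traf3ip2, Traf6, Traf2 and Map3k7, and the inhibitor Nfkbia. They were chosen by gene symbol from a table of 24060 genes, with earlier results of these data known, among them the counts of Il17rb in the pulldown of mice on a high-fat diet. All 10 were found in the table and all 10 passed the filter on low counts. Because the choice was made with these values in view, the comparisons that use the high-fat pulldown are given as descriptions with no p-values for the members. These are the comparison of diets in the pulldown, that of pulldown and whole white matter on the high-fat diet, and the interaction that contains them. For Il17rb the comparison of diets in whole white matter is treated alike, because this gene passed the filter only through high-fat libraries.

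RNA came from the white matter of 6 male Tie2-Cre:Rpl22-HA mice, 3 on chow with 10% of its kcal as fat (control-fat diet, CFD; animals 489, 555 and 556) and 3 on chow with 60% (high-fat diet, HFD; animals 516, 517 and 676), and the labels do not give the age of these animals. All 6 mice carried both the Tie2-Cre transgene and the floxed Rpl22 allele, whose ribosomal protein gains a hemagglutinin (HA) tag once Cre has acted, so no group lacked the tag. Each mouse gave 1 library of whole white matter RNA (input) and 1 library from an anti-HA ribosome pulldown (IP), which made 4 groups of 3 libraries. Tie2, encoded by Tek, marks endothelial cells, but its promoter is also active in blood-lineage cells, so the tag is not limited to endothelia by design.

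Library totals ran from 19567186 to 33660708 counts. The ribosomal RNA gene Rn45s took 38.7% to 42.3% of the counts in the CFD IP libraries, 17.1% to 19.1% in the HFD IP libraries and 6.34% to 14.2% in the inputs. The summed level of 12 endothelial markers, in TMM-scaled CPM (counts scaled to a common library size), ran from 6.19 to 211 in the CFD IP, 9.42 to 72.4 in the HFD IP, 10.1 to 44.4 in the CFD input and 14.7 to 41.4 in the HFD input. It was higher in the IP than in the input of the same animal in 3 of 6 animals, and in 2 of 6 without Egfl7, which made up 205 of the 211 CPM in the IP of animal 556. Cldn5, a tight junction gene of brain endothelium, was at 0 in 4 of the 6 IP libraries and in all 3 CFD inputs. It had more counts in the IP than in the input in animals 516 (114 and 50) and 556 (9 and 0). In animals 517 and 676 it had 0 counts in the IP and 22 and 30 in the input. The summed level of 8 oligodendrocyte markers was higher in the IP in 6 of 6 animals. It ran from 5176 to 6412 CPM in the CFD IP, 3001 to 7606 in the HFD IP, 4084 to 5047 in the CFD input and 2982 to 4541 in the HFD input. The 2 fractions were nearly equal in animal 676 (3001 CPM in the IP, 2982 in the input) and in animal 555 (5176 and 5047). The IP libraries are therefore called by their fraction and not by a cell type.

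IL-17 cytokines are dimers that bind pairs of receptor chains. IL-17RA is the chain shared by most of these pairs: with IL-17RC it binds IL-17A and IL-17F, and with IL-17RB it binds IL-25, while IL-17B binds IL-17RB. Bound receptors recruit the adaptor Act1, encoded by Traf3ip2, through a shared cytoplasmic domain. Act1 then engages TRAF6 and the kinase TAK1 (Map3k7), which lead to NF-kB and to chemokine transcription, or TRAF2, which serves the stabilisation of target mRNAs. Nfkbia encodes IkB-alpha, which holds NF-kB in the cytoplasm and is itself an NF-kB target.

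The first question was whether receptors and downstream adaptors were present in the same libraries. A gene was called present in a library with more than 3 counts, which corresponded to 0.0834 to 0.168 CPM depending on the library. Il17ra, Il17d, Traf3ip2, Traf6 and Map3k7 were present in all 12 libraries, so that the shared receptor chain stood beside Act1, TRAF6 and TAK1 transcripts in 12 of 12. This rests in part on low counts. Il17ra had 9 counts in the CFD IP of animal 489. Traf3ip2 had 7 in the CFD IP of animal 556 and 10 in the HFD input of animal 516. With more than 10 counts required, these libraries would not hold both genes. The other receptors were patchier. Il17rd was present in 9 libraries, Il17rc in 8 and Il17rb in 5. Traf2 and Nfkbia were each present in 10. All 4 receptors occurred together in 4 libraries, which were the 3 HFD inputs and the CFD input of animal 489, and in 0 of the 6 IP libraries. The CFD input of animal 489 entered with only 4 counts of Il17rb. All 4 adaptors occurred together in 10 libraries, 4 of them IP.

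The input held more of the pathway than the IP, as it did of all tested genes. All 10 members were present in each of the 3 HFD inputs, and 8 to 10 in the CFD inputs. The CFD IP libraries held 7 to 9 members and the HFD IP libraries 6 to 9. Of 30 possible pairs of a member and a library in each group, 30 were present in the HFD input, 27 in the CFD input, 23 in the CFD IP and 22 in the HFD IP. Over all tested genes, 79.7% to 95.0% were present in an IP library and 84.8% to 98.1% in an input library. In every animal this share was higher in the input than in the IP, so the difference is not particular to the members. A member that was not present was not detectable at this depth, and in bulk RNA fewer cells of a type and less RNA per cell cannot be told apart.

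**Figure D1:**
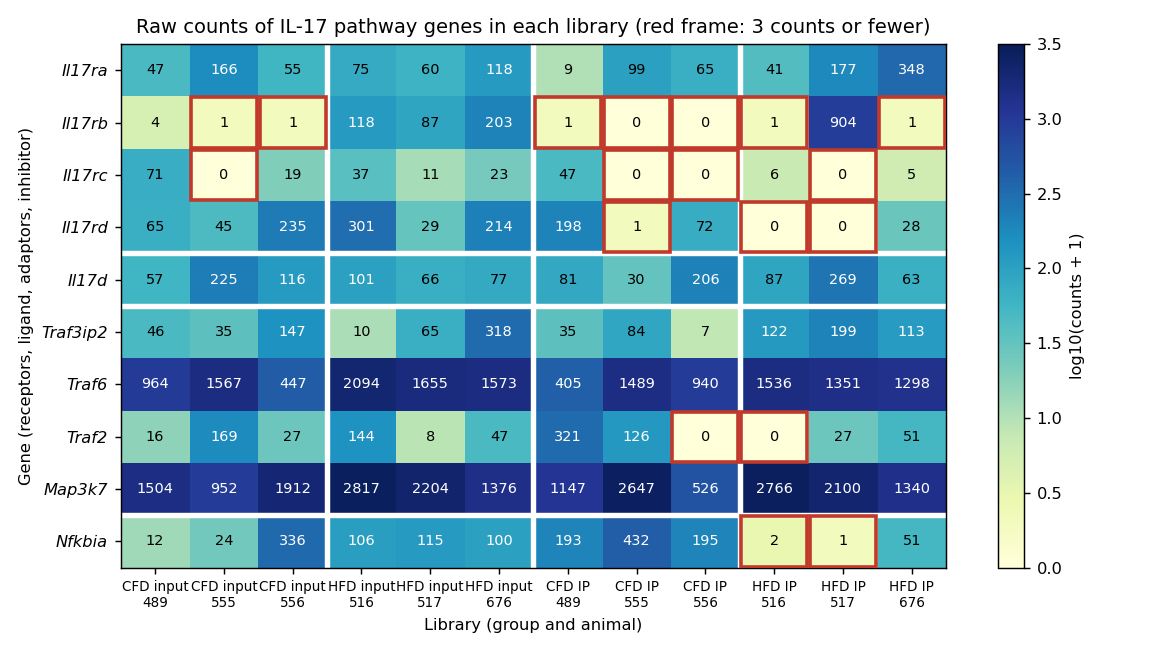
Raw counts of the 10 genes (rows, grouped as receptors, ligand, adaptors and inhibitor) in each of the 12 libraries (columns, by group and animal number), with cell colour giving log10(counts + 1) and a red frame marking 3 counts or fewer. Traf6 and Map3k7 had at least 405 counts in every library, whereas 14 of the 18 framed cells belong to Il17rb, Il17rc or Il17rd in IP or CFD input libraries and 2 belong to Nfkbia in the HFD IP.

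Levels between genes were compared per length, as CPM per 1000 bases of the gene model behind the deposited FPKM values. The kinase Map3k7 (11.7 ± 4.88 CPM per 1000 bases, SD, n = 12 libraries) and the ubiquitin ligase Traf6 (8.68 ± 2.94) stood at the top, at percentiles 68.6 and 60.6 of all tested genes. Il17d (3.65 ± 2.63), Nfkbia (3.58 ± 4.12), Il17rb (1.77 ± 4.15), Traf3ip2 (1.25 ± 1.08), Traf2 (1.06 ± 1.56), Il17ra (0.947 ± 0.699), Il17rd (0.458 ± 0.471) and Il17rc (0.322 ± 0.444) followed. Every gene overlapped the next one in this order over the 12 libraries, so no neighbours were separated beyond their spread. The receptors were at the low end, with 3 of 4 in the last ranks. The mean of Il17rb was set by a single library, and its median over 12 libraries was 0.0214 CPM per 1000 bases, the lowest of the 10 genes.

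**Figure D2:**
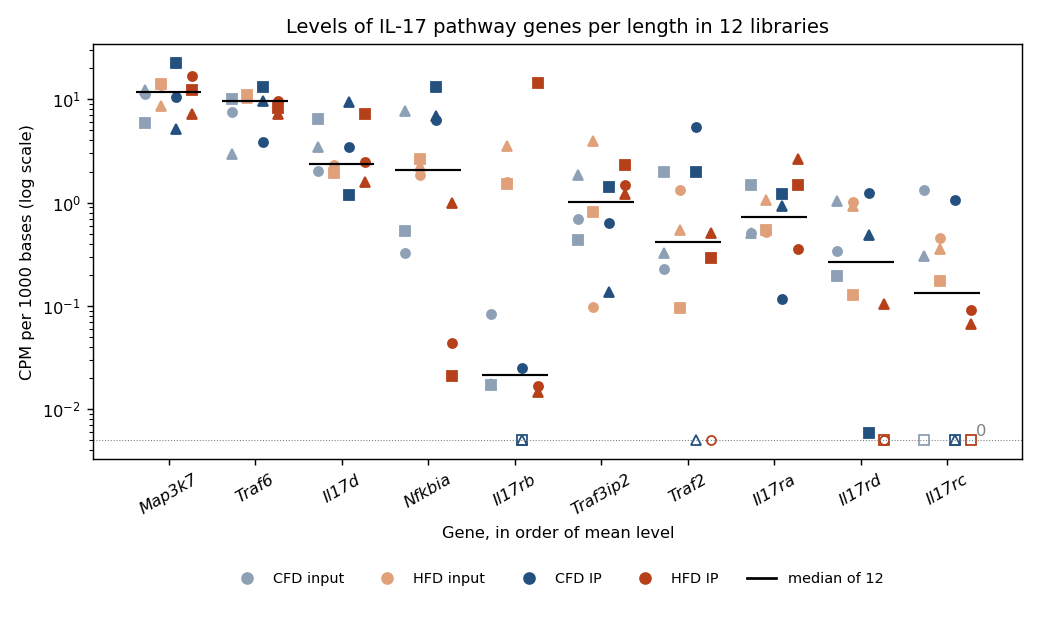
Level of each gene in CPM per 1000 bases (log axis) in the 12 libraries, coloured by group, with circles, squares and triangles for the 3 animals of a diet, open symbols on the dotted line for a value of 0 and a black bar for the median of 12 libraries. Map3k7 and Traf6 lie at medians of 11.8 and 9.68, while Il17rb has a median of 0.0214 and 1 HFD IP library at 14.5.

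Il17rb lies on the minus strand of chromosome 14 at 29996168 to 30008896 (GRCm38, mm10), and encodes the receptor chain for IL-17B and IL-25. In the inputs the animals on HFD had 3.28, 3.15 and 7.22 CPM (516, 517 and 676), and 0.172, 0.0353 and 0.0365 CPM were measured in the CFD animals (489, 555 and 556). These groups did not overlap, and the mean was 56.1-fold higher in the HFD input. With the CFD input of animal 489 left out, the other 2 CFD inputs fell under the limit of 3 counts and the HFD mean was at least 42.3-fold higher. The fitted log2 difference was 5.75 (SE 2.38). No p-value is given for it, because Il17rb passed the filter on low counts only through HFD libraries.

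In the IP the picture differed within the HFD animals. The HFD IP values of Il17rb were 0.0347 CPM (animal 516), 29.9 CPM (517) and 0.0305 CPM (676), and it was at 0.0517, 0 and 0 CPM in the CFD IP libraries of animals 489, 555 and 556. The diets overlapped in the IP, because 2 of the 3 HFD libraries held 1 count each. The HFD IP mean of 9.97 ± 17.2 CPM (SD, n = 3) was at least 63.9-fold above the mean CFD IP limit of 3 counts, and 99.8% of it came from animal 517. With animal 517 left out, both IP groups were under the limit and no fold can be given. Animals 516 and 676 had 118 and 203 counts of Il17rb in the input and 1 in the IP, so without animal 517 the HFD input was at least 53.7-fold above the HFD IP. Animal 517 went the other way, from 87 counts in the input to 904 in the IP.

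The partner chain Il17ra, on chromosome 6 at 120463181 to 120483731, varied far less. Its IP values were 0.466 to 4.78 CPM on CFD and 1.42 to 10.6 CPM on HFD, and its inputs held 2.01 to 5.85 and 2.09 to 4.19 CPM. The groups overlapped in all 4 comparisons, and the IP was higher than the input in 3 of 6 animals. Il17ra was present with Il17rb in 5 libraries, of which 1 was an IP library, that of HFD animal 517. Il17ra and Il17rc, the chains of the IL-17A and IL-17F receptor, were present together in 8 libraries, of which 3 were IP libraries. Among these, the HFD IP libraries of animals 516 and 676 held only 6 and 5 counts of Il17rc.

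Il17rb stands head to head with Chdh, which encodes choline dehydrogenase, and 4 bases separate the annotated ends of the genes. On the other side, 715 bases separate it from Actr8, which encodes a chromatin remodelling subunit. Whether reads were counted by strand is not given in the sources used here. The stretch between the start of Il17rb and the first exon of the protein-coding Chdh transcript is shown because it lies upstream of both Il17rb and that transcript. Past the gap of 4 bases it lies within the annotated Chdh gene, which begins at 30008901. The stretch holds 103 bases, chr14:30008897-30008999, RefSeq GRCm38.p6, written on the minus strand in the direction of Il17rb. No capitals are set, because the NF-kB type motif searched for below is not in it.
Il17rb upstream: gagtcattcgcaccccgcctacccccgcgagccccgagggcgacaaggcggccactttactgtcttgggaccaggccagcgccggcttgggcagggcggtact

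The counts of Chdh were set beside those of Il17rb. In the HFD IP, Chdh had 110, 498 and 326 counts in animals 516, 517 and 676, where Il17rb had 1, 904 and 1. In the CFD IP it had 231, 517 and 25 counts, where Il17rb had 1, 0 and 0. In the inputs Chdh measured 6.29 ± 2.68 CPM on CFD and 16.9 ± 9.71 CPM on HFD (SD, n = 3 each), and these groups overlapped. Actr8 had 776, 728 and 1078 counts in the HFD IP of animals 516, 517 and 676, so animal 517 was the lowest of these. In the CFD IP of animals 489, 555 and 556 it had 768, 860 and 18. Chdh was thus highest in animal 517 among the HFD IP libraries, as Il17rb was, while its highest IP value of all was in CFD animal 555 (25.0 CPM), where Il17rb had no count.

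The 5 tested genes most like Il17rb over the 12 libraries, by Pearson correlation of log2 CPM, were Mrc1 (r = 0.928), Lsr (r = 0.917), Htr2b (r = 0.915), AV039307 (r = 0.908) and Gm2897 (r = 0.888), as a description over 12 points that share 6 animals. Mrc1 encodes the macrophage mannose receptor. It was counted 27, 37 and 36 times in the HFD inputs, 13, 0 and 3 in the CFD inputs, 61 in the IP of animal 517 and 0 to 3 in each of the other 5 IP libraries. Both genes were highest in the same 4 libraries. The summed level of all 8 macrophage and monocyte markers, Mrc1 included, did not follow this order, with IP sums of 152 CPM (animal 516), 68.6 CPM (517) and 19.6 CPM (676) on HFD, beside 23.3 to 76.5 CPM in the CFD IP, 46.7 to 59.4 in the CFD input and 24.4 to 42.6 in the HFD input. Most of the HFD IP sums came from 1 gene, Itgam, with 94.9, 58.9 and 13.9 CPM in animals 516, 517 and 676. In the CFD IP Itgam had 2.64 to 37.2 CPM. Of the 8 markers, 6 exceeded 3 counts in all 3 HFD inputs, and 3 did so in all libraries of each other group. Ms4a7 was at 0 in all libraries of both HFD groups and Ccr2 in those of the CFD IP. The part of these cells in the Il17rb values was not tested. Cxcl5, the chemokine gene the study followed downstream of Il17rb, had 42, 1062 and 1 counts in the HFD IP libraries of animals 516, 517 and 676. Its inputs held 0, 6 and 2 counts in the same animals, so the HFD inputs with Il17rb did not hold it at a like level.

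**Figure D3:**
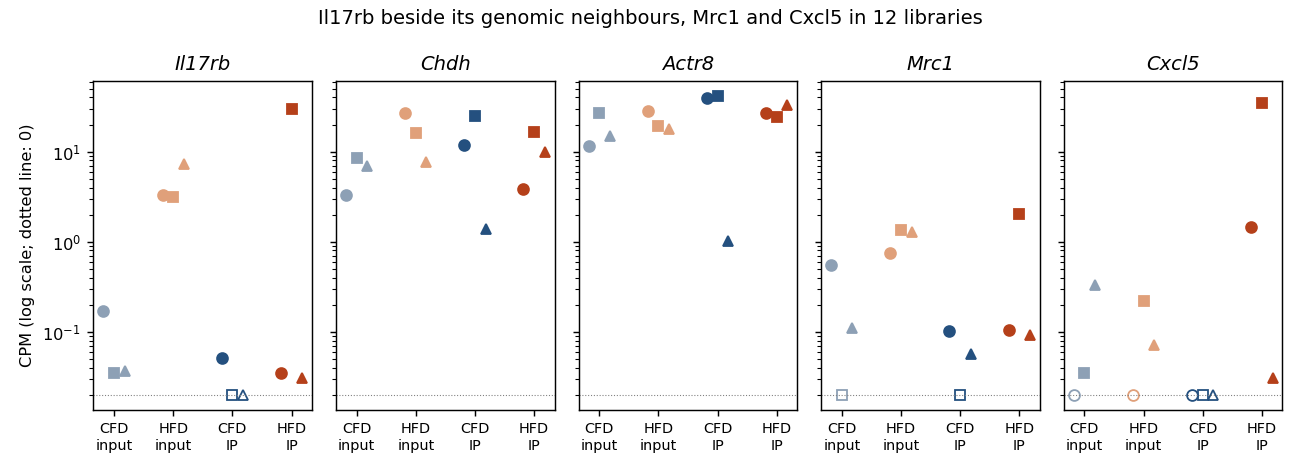
CPM (log axis, dotted line for 0) of Il17rb, its genomic neighbours Chdh and Actr8, Mrc1 and Cxcl5 in the 12 libraries, by group, with circles, squares and triangles for animals 489, 555 and 556 on CFD and 516, 517 and 676 on HFD, and open symbols for values of 0. Il17rb and Mrc1 are high in the 3 HFD inputs and in the IP of animal 517, Cxcl5 is highest in the IP of animal 517 (35.1 CPM), and Chdh and Actr8 are spread over all groups.

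Il17rc and Il17rd had lower values in the HFD IP than in the HFD input, in groups that did not overlap. Il17rc, on chromosome 6 at 113471455 to 113483163, was counted 37, 11 and 23 times in the inputs of HFD animals 516, 517 and 676 and 6, 0 and 5 times in their IP libraries. These groups did not overlap. On CFD it had 71, 0 and 19 counts in the input and 47, 0 and 0 in the IP, so that it was not higher in the IP in any of the 6 animals.

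Il17rd, on chromosome 14 at 27038964 to 27107286, encodes Sef, a receptor-like protein known also as an inhibitor of fibroblast growth factor signalling. It had 8.37, 1.05 and 7.61 CPM in the HFD inputs and 0, 0 and 0.853 CPM in the IP libraries of the same animals. In the CFD IP it ranged from 0.0483 to 10.2 CPM, with 198, 1 and 72 counts in animals 489, 555 and 556. The fitted log2 difference between IP and input was -4.29 (SE 2.19) on HFD and 0.15 (SE 1.91, edgeR adjusted p = 0.986) on CFD. Without animal 676 both HFD IP libraries were at 0, and the HFD input was then at least 46.4-fold higher. The interaction of diet and fraction was -4.44 (SE 2.82) on the log2 scale, and the diet difference within the IP was -4.04 (SE 2.16), with overlapping groups.

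Il17d, on chromosome 14 at 57524829 to 57543166, was the only IL-17 ligand with steady counts. It was present in all libraries, with 30 to 206 counts in the CFD IP, 63 to 269 in the HFD IP, 57 to 225 in the CFD input and 66 to 101 in the HFD input. The groups overlapped in all comparisons. The 5 other ligand genes were nearly silent. Il17a, Il17c and Il17f were without a count in any library, which allows up to 3 counts in each, and Il17b reached 9 counts in the CFD input of animal 489 and 10 in the HFD input of animal 676. Il25 reached 4. The remaining receptor, Il17re, the IL-17C receptor chain, reached 24 counts in the HFD input of animal 676. Il17b, which encodes a ligand of IL-17RB, was at 0 in all 6 IP libraries.

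Among the adaptors, Traf6 and Map3k7 were the steadiest of the 10 genes. Traf6, on chromosome 2 at 101678420 to 101701668, had 21.0 to 72.0 CPM in the CFD IP and 39.6 to 53.3 in the HFD IP, with a fitted log2 diet difference of -0.083 (SE 0.56). Map3k7, on chromosome 4 at 31963492 to 32023470, had 29.5 to 128 CPM in the CFD IP and 40.8 to 95.9 in the HFD IP, with a difference of -0.073 (SE 0.53). Both signs turned when animal was included as a block, as given under the processing alternatives. The coefficient of variation over the 12 libraries was 33.9% for Traf6 and 41.7% for Map3k7, at percentiles 9.37 and 17.1 of all tested genes, and 234% for Il17rb, at percentile 97.0. These percentiles were not matched for level, and Traf6 and Map3k7 had the highest levels of the 10 genes. Their highest library was still 4.41-fold and 4.34-fold above their lowest.

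Traf6 was also higher in the HFD input, with 58.2, 59.9 and 55.9 CPM in animals 516, 517 and 676, than in the CFD input, with 41.4, 55.3 and 16.3 CPM in animals 489, 555 and 556. The groups did not overlap, but the gap between the highest CFD and the lowest HFD value was small beside the CFD spread (CFD 37.6 ± 19.7 CPM, HFD 58.0 ± 2.02 CPM, SD, n = 3 each). The fitted log2 difference was 0.62 (SE 0.56, edgeR adjusted p = 0.99997). In the HFD IP Traf6 lay below the HFD input in all 3 animals, by 0.34 on the log2 scale in the fit (-0.34, SE 0.56).

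Traf3ip2, on chromosome 10 at 39612934 to 39655307, was present in every library but ranged from 0.278 CPM in the HFD input of animal 516 to 11.3 CPM in that of animal 676. In the IP it had 0.393 to 4.06 CPM on CFD and 3.44 to 6.57 CPM on HFD, and these groups overlapped. Traf2, on chromosome 2 at 25517982 to 25546940, was at 0 in the IP of CFD animal 556 and of HFD animal 516. Its highest value was 16.6 CPM, in the IP of CFD animal 489. The diet difference of Traf2 in the IP was -3.21 (SE 2.17) on the log2 scale, with overlapping groups.

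Nfkbia, on the minus strand of chromosome 12 at 55489409 to 55492647, was the only one of the 10 genes whose IP values did not overlap between the diets. It had 9.98, 20.9 and 10.9 CPM in the CFD IP (animals 489, 555 and 556) and 0.0694, 0.0330 and 1.55 CPM in the HFD IP (animals 516, 517 and 676). All 3 HFD values were low, and the means were 25.2-fold apart (CFD 13.9 ± 6.03 CPM, HFD 0.552 ± 0.868 CPM, SD, n = 3 each). With animal 676 left out, the HFD IP libraries were under the limit of 3 counts and the CFD IP was at least 137-fold higher. The fitted log2 diet difference was -4.64 (SE 1.80). The share of Rn45s also differed between these groups. With Rn45s and Lars2 removed the difference was -4.67, but this removal shifted the differences of all genes by a median of only -0.024. It therefore tests little, and the part of the Rn45s share in the Nfkbia values was not tested. Of all tested genes, 10.6% had IP values that did not overlap between the diets.

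Within animals, the IP of Nfkbia lay below the input on HFD and mostly above it on CFD. The HFD inputs held 106, 115 and 100 counts, close to each other, and the IP libraries of the same animals 2, 1 and 51. On CFD the inputs held 12, 24 and 336 counts and the IP libraries 193, 432 and 195. The IP was lower than the input in 3 of 3 HFD animals and higher in 2 of 3 CFD animals. The fitted log2 difference between IP and input was -2.67 (SE 1.65) on HFD and 1.62 (SE 1.58, edgeR adjusted p = 0.732) on CFD, and the interaction was -4.29 (SE 2.28). The CFD value ranged from 0.73 without animal 555 to 4.49 without animal 556, whose input held most of the CFD input level, and was 3.16 with the animal as a block. The HFD value was -5.99 without animal 676 and -4.48 with the block. The interaction was -7.16 without animal 556, -7.61 without animal 676 and -7.64 with the block. The diets did not differ in one direction in the input, where the CFD values (0.515 to 12.3 CPM) spanned the HFD values (2.95 to 4.16 CPM).

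**Figure D4:**
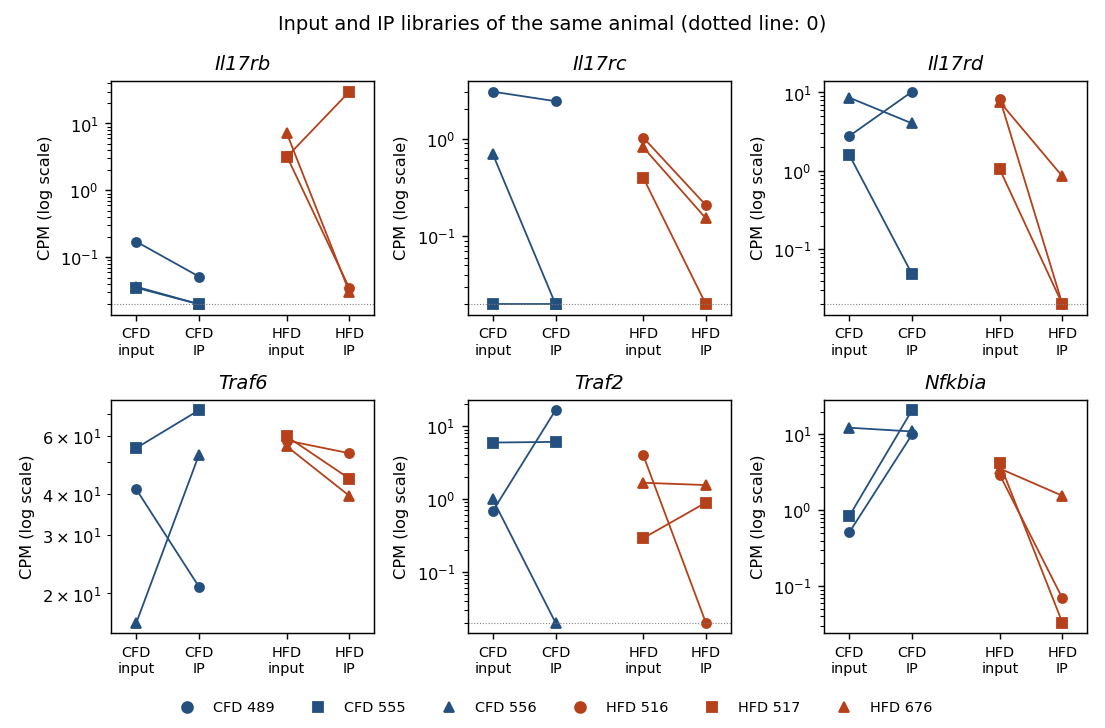
CPM (log axis with its own range in each panel, dotted line for 0) in the input and the IP of the same animal, joined by a line, for 6 of the genes, with CFD animals in blue and HFD animals in red. Il17rb is lower in the IP in HFD animals 516 and 676 and higher in 517, Il17rc and Il17rd are lower in the IP in all 3 HFD animals, and Nfkbia is lower in the IP in all 3 HFD animals but higher in CFD animals 489 and 555.

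The 250 bases before the Nfkbia start, chr12:55492648-55492897 of RefSeq GRCm38.p6, are shown on the minus strand in the direction of the gene. They are shown because this gene is a textbook NF-kB target and was the only member whose IP values did not overlap between the diets. Capitals mark matches to the NF-kB type motif GGNNNTTCC, read on either strand (GGAANNNCC on the other), at 211, 178 and 29 bases upstream of the start, counted to the first base of the match.
Nfkbia promoter: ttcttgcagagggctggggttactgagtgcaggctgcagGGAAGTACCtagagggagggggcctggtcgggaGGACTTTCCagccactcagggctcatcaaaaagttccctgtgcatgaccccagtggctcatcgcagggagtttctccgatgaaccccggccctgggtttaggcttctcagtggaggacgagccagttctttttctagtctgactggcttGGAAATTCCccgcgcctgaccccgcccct

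Windows of 300 bases (250 before and 50 after the start) were found for 8 of the 10 genes, Il17ra and Traf3ip2 being without one. Nfkbia held 3 matches, Il17rc held 2, Traf2 and Map3k7 held 1 each, and Traf6, Il17rd, Il17rb and Il17d held 0. Of 32851 promoter windows of this length, 18.5% held a match, 2.16% held 2 or more and 0.180% held 3 or more. A match is a run of letters and says nothing of binding in these mice.

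Of 10 other brakes on NF-kB and IL-17 signalling, 9 were tested and 0 were called in any comparison (edgeR, adjusted p under 0.1). At most 0.188% of all tested genes were called in a comparison, so the count of 0 lies near that share. Between diets in the IP, 6 of the 9 had fitted values below 0 and 3 above, with a median log2 difference of -0.088, beside 0.035 over all tested genes. The smallest p-values were those of Traf3, which encodes a TRAF protein that limits IL-17 receptor signalling (-0.73, SE 0.45, edgeR adjusted p = 0.548), and Tnip1, which encodes a partner of the deubiquitinase A20 (-1.07, SE 0.99, edgeR adjusted p = 0.701). Nfkbib, which encodes IkB-beta, had 253 to 298 counts in the CFD IP and 33 to 714 in the HFD IP. Nfkbie had 0 to 13 and 0 to 114. Tnfaip3, which encodes A20, had 602, 224 and 29 counts in the CFD IP and 105, 1 and 335 in the HFD IP.

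Nfkbiz, a target of IL-17 that encodes IkB-zeta, had 138, 456 and 4 counts in the CFD IP and 0, 2 and 21 in the HFD IP, and these groups overlapped. Its inputs held 255, 11 and 196 counts on CFD and 214, 71 and 217 on HFD, so that the IP was below the input in all 3 HFD animals. The fitted log2 difference was -5.35 (SE 2.01, edgeR adjusted p = 0.365) between diets in the IP and -4.49 (SE 1.93, edgeR adjusted p = 0.704) between IP and input on HFD.

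Of 22 other signal transducers listed (TAB proteins, IkB kinases, NF-kB subunits, MAP kinases, chaperones and RNA-binding partners of Act1), 17 exceeded 3 counts in all CFD IP libraries, 18 in all CFD inputs and 19 in all libraries of each HFD group. Of the 22, 20 were tested and 0 were called in any comparison, beside at most 0.188% of all tested genes. Chuk, which encodes an IkB kinase, had 49, 2 and 5 counts in the CFD IP and 26, 183 and 572 in the HFD IP. Their summed level was 3531 to 4255 CPM in the CFD IP and 3874 to 4289 CPM in the HFD IP. Mapk14, which encodes the p38-alpha kinase, had 169 ± 87.7 CPM in the CFD IP and 51.9 ± 20.9 CPM in the HFD IP, and 64.1 ± 17.6 and 54.4 ± 11.0 CPM in the CFD and HFD inputs (SD, n = 3 each). Its log2 diet difference in the IP was -1.70 (SE 0.47, edgeR adjusted p = 0.270).

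The target genes of IL-17 were mostly absent. Of 24 listed chemokines, cytokines, enzymes and transcription factors, 16 stayed at or under 10 counts in all 12 libraries, and 7 of these had no count in any. Only Ptgs2, which encodes cyclooxygenase 2 and is also a neuronal activity gene, exceeded 3 counts in all 12 libraries, with 39 to 662 counts in the CFD IP and 78 to 620 in the HFD IP. Of the 5 targets that passed the filter, 0 were called in any comparison, beside at most 0.188% of all tested genes. The median log2 diet difference of these 5 in the IP was -0.69, with Cxcl5 and Nfkbiz at opposite ends (11.3 and -5.35 in the fit, where the Cxcl5 value depends on the prior count because no CFD IP library held a count).

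Between IP and input on CFD and between diets in the input, 0 of the 10 members were called by edgeR at an adjusted p under 0.1. Between diets in the IP, 0.0557% of 14354 tested genes were called, and 1565 had an unadjusted p under 0.05. Between IP and input, 0.188% of genes were called on CFD and 0.0139% on HFD, and 0 members had an unadjusted p under 0.05 on CFD. Between diets in the input 0% of genes were called and 292 genes had an unadjusted p under 0.05. For the interaction 0% of genes were called and 770 had an unadjusted p under 0.05. DESeq2 called many more genes, 5.36% between diets in the IP, 5.68% between IP and input on CFD, 1.11% on HFD, 0.216% between diets in the input and 0.843% for the interaction. It gave an adjusted p to 8 of the 10 members between IP and input on CFD and between diets in the input, and called 0 of the 8. It gave none to Il17rb and Nfkbia, and none to any member in the comparison of IP and input on HFD, so its calls do not bear on those values. Replicates varied widely (common biological coefficient of variation 101%), so a p that misses the threshold does not show that a member was unchanged.

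Counts of members whose groups did not overlap were 1 of 10 between diets in the IP (10.6% of all genes), 2 of 10 between diets in the input (Il17rb and Traf6, beside 10.4% of genes), 0 of 10 between IP and input on CFD (15.2% of genes) and 4 of 10 between IP and input on HFD (Il17rc, Il17rd, Traf6 and Nfkbia, all lower in the IP, beside 14.1% of genes). The median log2 diet difference of the 10 members in the IP was -0.20, beside 0.035 over all tested genes, and their median difference between IP and input on HFD was -0.17, beside -0.014.

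A value resting on a single library was common in these data. In the HFD IP, the highest library held at least 90% of the summed level for Il17rb (99.8%, animal 517), Il17rd (all of it, animal 676) and Nfkbia (93.8%, animal 676), which was 3 of 10 members, beside 14.0% of all tested genes. In the CFD IP this held for 2 members, Il17rb and Il17rc, beside 15.8% of genes. Il17rb had only 1 count in that group, so its share there follows from a single count. In the inputs it held for 1 member on CFD and 0 on HFD, beside 9.61% and 4.46% of genes. The HFD input was the most even group, with a median share of 47.5% for the members and 46.7% for all tested genes.

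**Figure D5:**
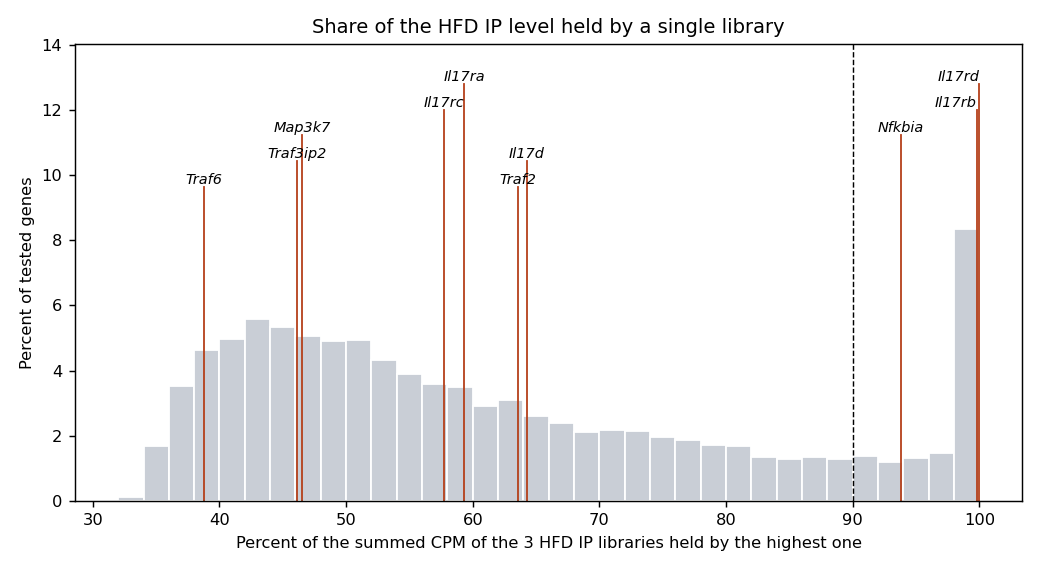
Histogram over all tested genes of the percent of the summed CPM of the 3 HFD IP libraries that the highest library held (grey bars, percent of genes per bin of 2 percentage points), with the 10 members as labelled red lines and a dashed line at 90%. Il17rb, Il17rd and Nfkbia lie past 90%, as do 14.0% of all genes, and Traf6 lies at 38.7%.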

How the data were processed

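RNA libraries of 12 samples (input and IP of 6 mice) were described by the labels as made with a Nugen Ovation kit and by the study's methods as TruSeq with Ribo-Zero, so the removal of ribosomal RNA is uncertain. The methods and the reagent list also name different Tie2-Cre lines. The authors aligned paired-end reads to mm10 with STAR, and HTSeq is named in the submitters' processing notes. Tool versions and the use of strand are not given in the sources used here. The authors deposited raw counts for each gene symbol, in whole numbers with no normalization. The FPKM values, also made by the authors, served here only to recover gene lengths. The authors' own fold changes and p-values in the same table were not used. No per-sample column was left unmapped.

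Counts were scaled by TMM and tested with the quasi-likelihood F-test of edgeR 4.0.16 (R 4.3.3) with 4 group means over all 12 libraries. Genes were kept by filterByExpr (minimum count 10, minimum total 15), which left 14354 of 24060. P-values were adjusted by Benjamini-Hochberg over all of them, and a gene was called at an adjusted p under 0.1. CPM are TMM-scaled. A gene was present above 3 counts, and a fold against a group at or under 3 counts in every library was computed against the mean CPM of 3 counts per library, for counting error only. The genes, lists and tests were chosen with earlier results of these data known. The text names all members, Cxcl5, the other IL-17 ligands and receptor, some of the genes with the smallest p in each other list, the neighbours of Il17rb, the 5 genes most correlated with it and checks of the labels, and Nfkbib, Nfkbie, Tnfaip3, Ptgs2, Cldn5, Ms4a7 and Ccr2 were named after their values were seen. Alternatives were RLE scaling, no filter, DESeq2 1.42.0, removal of Rn45s and Lars2, a threshold of 0.05, only the libraries compared, animal as a block (edgeR, or limma 3.58.1 between animals) and each animal left out. The IP and the input of the same number come from the same animal, and the correlation of their deviations from the group means ran from 0.0064 to 0.19. Gene positions and promoter sequences are from RefSeq GRCm38.p6, the build of mm10. Protein sequences were not used here.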

Additional observations from a re-analysis of the deposited data

How the results depend on the processing

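Between IP and input on CFD and between diets in the input, the count of called members stayed at 0 under all alternatives, with the animal as a replicate block included (0 in each). By DESeq2 this count covers the 8 members that had an adjusted p. DESeq2 gave no adjusted p to any member for IP against input on HFD, which is described here without p-values for the members. A fit of only the libraries compared tested 8 members between diets in the IP and 9 between IP and input on CFD, and cannot give the interaction. Over all genes the number called between diets in the IP was 8 by edgeR, 219 of 18302 without the filter and 770 by DESeq2, and between IP and input on CFD 27, 312 and 816. On HFD it was 2, 79 and 160, between diets in the input 0, 3 and 31, and for the interaction 0, 44 and 121. Of the fitted log2 differences of the 10 members, 9 of 50 changed sign with the animal as a block, 36 of 300 when an animal was left out and 0 of 237 under the other refits. With the block, the diet difference in the IP became 0.068 for Traf6 and 0.035 for Map3k7, and with an animal left out it ran from -0.46 to 0.31 for Traf6 and from -0.45 to 0.63 for Map3k7. The cause was not tested. The number of members present in all 12 libraries fell from 5 to 3 when more than 10 counts were required and to 3 when at least 0.5 CPM was required. Il17ra and Traf3ip2 were lost in both cases, and Il17d, Traf6 and Map3k7 stayed. Leaving out animal 676 moved the Il17rd and Nfkbia diet differences in the IP to -9.95 and -7.96, because the remaining HFD IP libraries held 0 to 2 counts. Low counts limit the receptors most: a receptor under 3 counts in a library cannot be told from one that is absent.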
